A study of Mus musculus with 7 samples.

Results

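The acyl-CoA thioesterases are enzymes named by the Acot prefix, and 10 of their genes (Acot1, Acot2, Acot3, Acot4, Acot7, Acot8, Acot9, Acot11, Acot12 and Acot13) were followed here in kidney RNA. They were chosen by symbol, and all 10 were found among the 45706 genes of the tables and among the 15399 genes with enough counts to be tested. The samples were kidneys of 7 male mice, all Slc7a9-/- and all aged 6 months, with 1 library per mouse. Of these, 3 mice were untreated and 4 received L-ergothioneine in the drinking water at 16 mg/kg/day. Slc7a9 encodes a subunit of the renal cystine transporter, and mice that lack it are a model of cystinuria. No wild-type kidney was part of the comparison, so every value is a difference with ergothioneine within the knockout. The labels number the mice but name no litter, cage or collection time, and p-values measure the spread between these mice.

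Acyl-CoA thioesterases split fatty acyl-CoA, or acetyl-CoA, into the free acid and coenzyme A, the reverse of the step that acyl-CoA synthetases catalyse. They thereby set, together with the synthetases, how much acyl-CoA a compartment holds and how much free coenzyme A it can use. The type I enzymes, here Acot1 to Acot4, have an alpha/beta hydrolase fold, are encoded side by side on chromosome 12, and are known as PPARA targets in liver. The type II enzymes, here Acot7 to Acot13, have hotdog-fold domains and are encoded at scattered loci. Acot11 and Acot12 carry in addition a START lipid-binding domain. Within the cell, Acot1, Acot7 and Acot12 are known as cytosolic enzymes, Acot2, Acot9 and Acot13 as mitochondrial, and Acot3, Acot4 and Acot8 as peroxisomal.

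Library totals ran from 14843899 to 19791575 counts, and the standard error of a log2 fold change had a median of 0.11 over the genes tested. In 1102 genes, 7.16% of those tested, the groups differed by edgeR's quasi-likelihood test at a Benjamini-Hochberg adjusted p below 0.05. Untreated libraries 1 and 2 stood apart in their share of short non-coding RNA, which made up 12.2% and 16.2% of their TPM but 37.5% to 48.7% elsewhere. TPM, which is per transcript length and sums to a fixed total, was therefore used here for levels between genes, and CPM (counts relative to library size, scaled between libraries by TMM) for differences of single genes between groups. Sums over several members are given with their scale named, since it changes some of them. The Slc7a9 gene itself had 95 to 105 counts in untreated and 103 to 166 in treated libraries, and since its disrupted region is not named in the labels this does not check the genotype. The defining markers of proximal tubule were present, all 18 of the list being tested, with a summed level of 34554 to 36915 CPM in untreated and 33156 to 37281 CPM in treated kidneys.

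The sequences upstream of 4 members are shown, and their part in the differences was not tested. The members are Acot12 and Acot11, which passed the test, and the neighbours Acot1 and Acot2, whose ratio did not overlap between groups. Each sequence is the 250 bases before the annotated start, 5′ to 3′ on the gene's own strand. They are from RefSeq's GRCm38.p6 annotation, with matches to the searched motifs in capitals.
Acot12, chr13:91741271-91741520, plus strand: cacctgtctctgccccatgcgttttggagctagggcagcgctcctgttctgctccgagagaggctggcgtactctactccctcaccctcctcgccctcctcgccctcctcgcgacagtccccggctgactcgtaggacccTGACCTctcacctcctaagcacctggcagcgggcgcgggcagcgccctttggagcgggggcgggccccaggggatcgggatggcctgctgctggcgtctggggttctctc
Acot11, chr4:106799832-106800081, minus strand, before the second of 2 annotated starts: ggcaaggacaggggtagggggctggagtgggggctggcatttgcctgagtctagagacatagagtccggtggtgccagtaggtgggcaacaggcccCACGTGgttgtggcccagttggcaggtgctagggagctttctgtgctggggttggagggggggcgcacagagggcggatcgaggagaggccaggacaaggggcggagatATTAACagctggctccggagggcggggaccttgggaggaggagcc
Acot1, chr12:84009252-84009501, plus strand: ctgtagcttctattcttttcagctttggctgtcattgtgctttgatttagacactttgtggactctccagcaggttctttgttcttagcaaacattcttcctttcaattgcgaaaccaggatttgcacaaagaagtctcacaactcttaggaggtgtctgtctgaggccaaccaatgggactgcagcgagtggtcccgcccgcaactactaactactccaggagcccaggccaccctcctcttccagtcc
Acot2, chr12:83987611-83987860, plus strand: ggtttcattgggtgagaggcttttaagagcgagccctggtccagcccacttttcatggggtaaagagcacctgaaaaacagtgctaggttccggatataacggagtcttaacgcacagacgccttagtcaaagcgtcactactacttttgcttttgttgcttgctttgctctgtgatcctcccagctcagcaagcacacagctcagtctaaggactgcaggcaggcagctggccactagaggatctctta

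RefSeq promoter windows matched 9 of the 10 members, Acot13 being the exception, with 11 windows in all. The motifs searched on both strands were the direct repeat of AGGNCA with 1 base between its copies (a PPAR response element), the single nuclear receptor site AGGTCA, the E-box CACGTG, the D-box core TTANNTAA, the HNF1 core GTTAAT and the antioxidant response element core TGACNNNGC. AGGTCA lay 110 to 105 bases before the start of Acot12 and 13 to 8 bases before that of Acot4, and it is in 14.0% of all 32851 promoter windows of this length. The E-box was found 154 to 149 bases before the second start of Acot11, whose window also held the HNF1 core 45 to 40 bases before the start, and 66 to 61 bases before the start of Acot4. These 2 motifs are in 6.02% and 6.43% of all windows. The window before the first Acot11 start, chr4:106805008-106805257, held no match to any of the searched motifs. The antioxidant response element core lay 92 to 84 and 99 to 91 bases before the 2 annotated starts of Acot3. The D-box core lay 171 to 164 bases before the start of Acot9. They are in 10.2% and 5.43% of all windows. None of these letters is in the Acot1 or Acot2 window. The full direct repeat, in 0.338% of all windows, was in 0 of the 11. A match is a description of the letters and says nothing about binding.

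In the cytosol, the acetyl-CoA hydrolase gene Acot12 (ENSMUSG00000021620, chromosome 13, 91741512 to 91786148, GRCm38) was lower with ergothioneine. Its levels were 278, 220.0 and 228 CPM in untreated libraries 1, 2 and 3 and 168, 162, 185 and 154 CPM in treated libraries 1 to 4. Every treated kidney lay below every untreated one, and untreated library 1 was the highest of the 7. The group means were 242 ± 31.4 CPM (SD, n = 3) and 167 ± 13.4 CPM (SD, n = 4), a log2 fold change of -0.53 ± 0.08 (SE, edgeR adjusted p = 0.00154). Acot12 kept its call when any 1 library was left out, with log2 fold changes from -0.60 to -0.42, and when untreated libraries 1 and 2 were left out together, which assumes that the lone untreated library varies like the treated ones (-0.45, adjusted p = 0.0114). In bulk tissue, fewer cells that express a gene and less of its RNA per cell cannot be told apart, and this holds for every difference below.

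Acot12 is expressed in proximal tubule, and markers of nephron segments are given beside it. Of the 18 proximal tubule markers 1 rose and 4 fell, Slc7a13, Cyp2e1, Fbp1 and Acsm2 being lower and Gatm higher, with a median log2 fold change of -0.04 beside 0.00 (-0.0031) over all genes tested. Of all genes tested 3.58% rose and 3.57% fell, shares to set beside each marker count here and below. The summed proximal level overlapped between the groups, as given above. Of the 12 distal and collecting duct markers 3 rose and 0 fell (Slc4a1 0.59, Slc12a1 0.34 and Atp6v1g3 0.63, log2 fold changes), and their summed level was 5359 to 5727 CPM untreated and 5989 to 6758 CPM treated. The proximal falls became 2 when untreated library 1 or 3 was left out, and of the omissions Gatm kept its call only in that of untreated library 1. The distal rises became 1 on omitting untreated library 3 or treated library 1, and 5 on omitting untreated library 2. Acsm2 was named after its value was seen. The part of these markers in the fall of Acot12 was not tested.

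Acot11 (ENSMUSG00000034853, chromosome 4, 106744555 to 106804998), which encodes a long-chain acyl-CoA thioesterase known from brown fat, was the other member that passed the test. It stood at 38.0, 45.9 and 46.9 CPM in untreated kidneys and at 31.6, 32.3, 31.2 and 39.1 CPM in treated ones. The groups overlapped, because treated library 4 lay above untreated library 1. Means were 43.6 ± 4.88 CPM (SD, n = 3) and 33.5 ± 3.73 CPM (SD, n = 4), a log2 fold change of -0.38 ± 0.09 (SE, edgeR adjusted p = 0.0211). This call depended on single libraries: on omission of untreated library 2, untreated library 3 and treated libraries 1, 2 and 3 in turn the adjusted p was 0.0874, 0.0938, 0.0770, 0.0708 and 0.0562. It was -0.30 on TPM rescaled without short non-coding RNA, where it did not pass (adjusted p = 0.414). Without treated library 4 it was -0.46 (adjusted p = 0.00351), and without untreated libraries 1 and 2 together -0.48 (adjusted p = 0.0407).

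Adipocyte and brown fat markers are given beside Acot11. Of 17 markers 14 were tested, and 10 of these fell and 0 rose. Log2 fold changes were -5.13 for Otop1, -4.63 for Cidea, -3.23 for Plin1 and -2.94 for Slc36a2, fitted values that depend on the prior count where libraries are at 0. The summed level of the 17 was 175 to 221 CPM in untreated and 138 to 149 CPM in treated kidneys. Ucp1, the uncoupling protein, stood at 17.3, 17.3 and 28.1 CPM untreated and at 0, 0.607, 1.75 and 0.981 CPM treated (named after its values were seen), Cidea had 0 counts in treated libraries 1 and 3, and Otop1 in treated libraries 2 and 3. Acot11 had means of 43.6 CPM untreated and 33.5 CPM treated, as given above. The part of these markers in the fall of Acot11 was not tested.

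**Figure D1:**
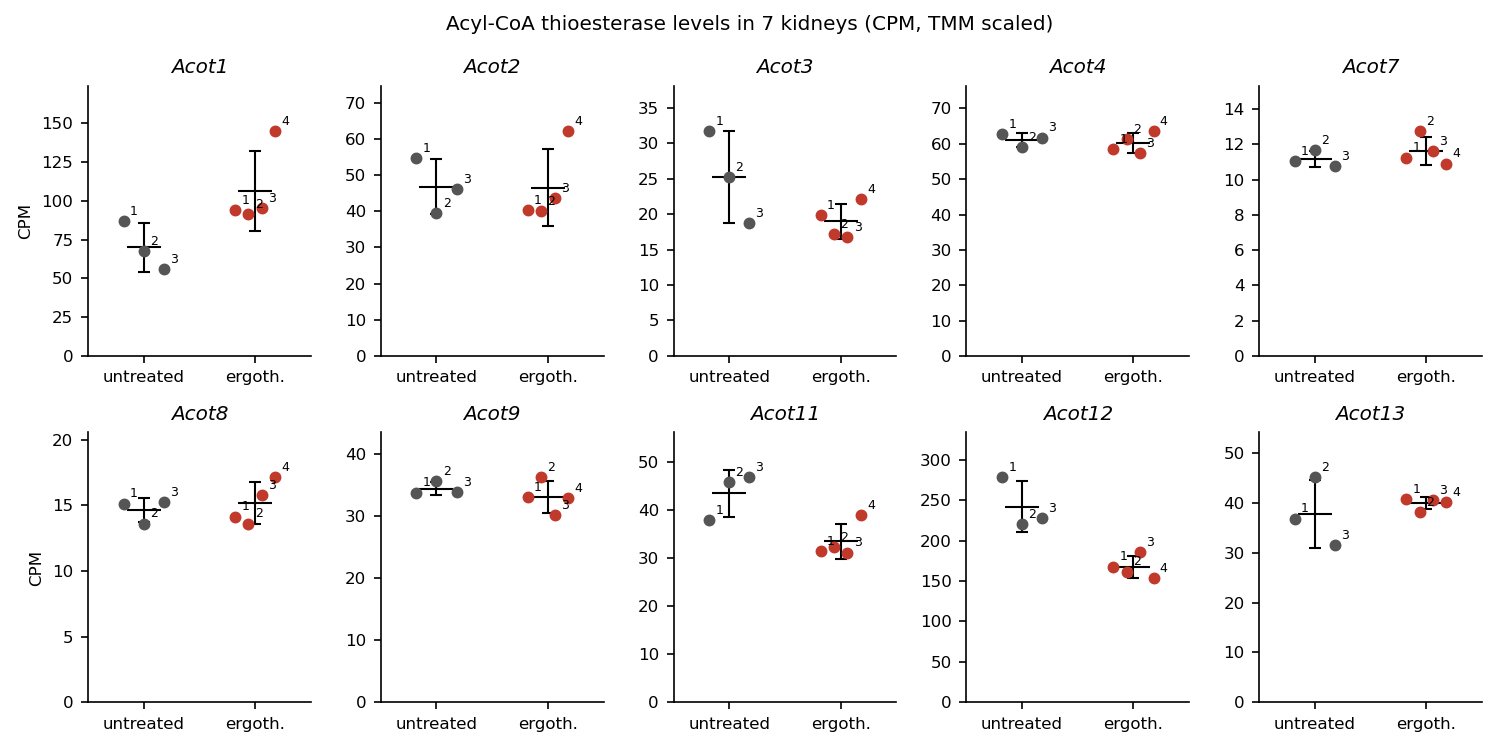
Levels of the 10 members in CPM (y axes, linear, from 0) in untreated and ergothioneine-treated kidneys. Points are single libraries with their replicate number, black lines are means and bars are SD. Acot12 did not overlap between groups and was lower, Acot1 did not overlap and was higher, and treated library 4 was the highest treated library for Acot1, Acot2 and Acot11.

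Across the family, 2 of 10 members fell and 0 rose, where 3.57% of all tested genes fell and 3.58% rose. The median log2 fold change of the members was -0.02, beside 0.00 (-0.0031) over all genes tested. An unadjusted p below 0.05 was reached by 3 members, the third being Acot3, and by 3201 of the 15399 genes tested. Groups did not overlap for 2 members, Acot12 and Acot1, where this held for 18.6% of all genes tested (9.46% higher and 9.11% lower). DESeq2 and limma-voom, which called 7.04% and 6.58% of genes, both called 2 members, as did the fit without untreated libraries 1 and 2 (3.43%), and 1 member was called on rescaled TPM (1.73%). Both called members are the START-domain thioesterases. Their deviations from the group means had a Pearson r of -0.86 over the 7 libraries, which share scaling and depth. Large values of either sign also occurred between members without that domain, as for Acot2 with Acot8 (0.87), Acot1 with Acot3 (0.87) and Acot7 with Acot8 (-0.77).

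**Figure D2:**
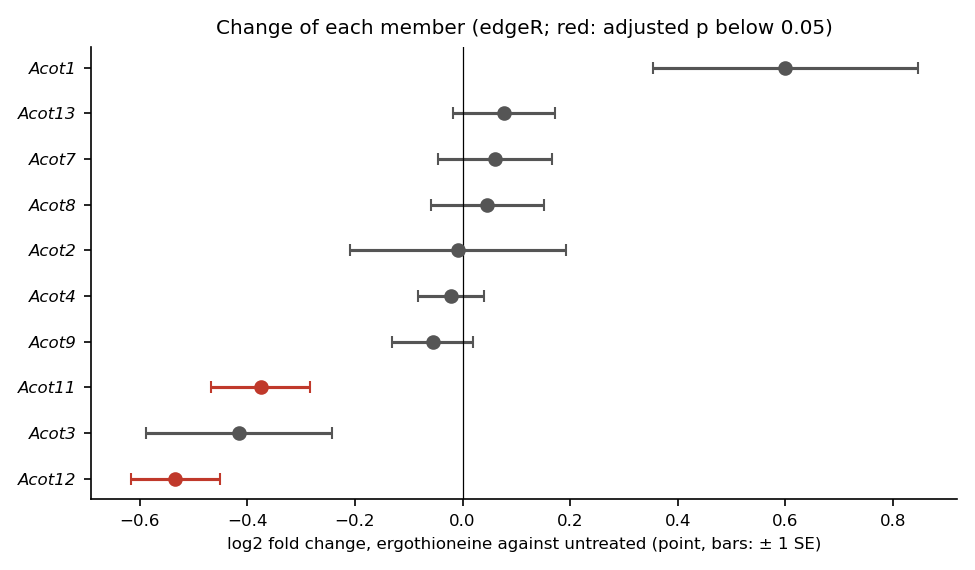
Log2 fold change (x axis) of each member with ergothioneine against untreated by edgeR, with bars of 1 SE. The 2 called members, in red, are Acot12 at -0.53 and Acot11 at -0.38, and Acot1 at 0.60 had the widest bars.

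Acot1 (ENSMUSG00000072949, chromosome 12, 84009490 to 84018371), the cytosolic type I thioesterase, had the largest change of the family in size but did not pass the test. It stood at 87.1, 67.5 and 55.8 CPM in untreated kidneys and at 94.1, 91.5, 95.2 and 145 CPM in treated ones. All 4 treated kidneys lay above all untreated ones, with treated library 4 far above the other treated libraries. Means were 70.1 ± 15.8 CPM (SD, n = 3) and 106 ± 25.8 CPM (SD, n = 4), a log2 fold change of 0.60 ± 0.25 (SE, edgeR adjusted p = 0.257). Without treated library 4 the difference was 0.41 (adjusted p = 0.216). Its standard error was the largest of the 10 members.

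Acot2 (ENSMUSG00000021226, chromosome 12, 83987861 to 83993873), which encodes the mitochondrial counterpart of Acot1, lies next to it and showed no such pattern. Its levels were 54.6, 39.5 and 46.2 CPM untreated and 40.4, 40.1, 43.6 and 62.2 CPM treated. The groups overlapped, with a log2 fold change of -0.01 ± 0.20 (SE, edgeR adjusted p = 0.988) whose sign changed when single libraries were left out. The ratio of Acot1 to Acot2 counts, which needs no scaling between libraries, was 1.59, 1.71 and 1.21 in untreated kidneys and 2.33, 2.28, 2.18 and 2.33 in treated ones. The 4 treated values lay together and above all untreated values. An exact permutation test over the 7 libraries gave a two-sided p of 0.0571, and 0.200 after adjustment over 7 such comparisons. The two-sided value is the one-sided value doubled, and 0.0571 is the smallest this test can give here. This ratio was chosen after the values were seen, which neither p-value takes into account.

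The 2 genes share sequence, which limits how their reads can be told apart. Of the 50-base stretches in the annotated Acot2 transcripts 24.5% also occur in Acot1, and 13.6% of those in Acot1 occur in Acot2. The authors' estimated counts for Acot1 and Acot2 were not whole in any of the 7 libraries, nor in 6 of 7 for Acot3, so reads were divided between copies. Acot7, Acot8, Acot11, Acot12 and Acot13 shared no such stretch with another Acot gene and had whole counts throughout. Levels of Acot1, Acot2 and Acot3 are therefore uncertain to an extent that the files do not give.

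**Figure D3:**
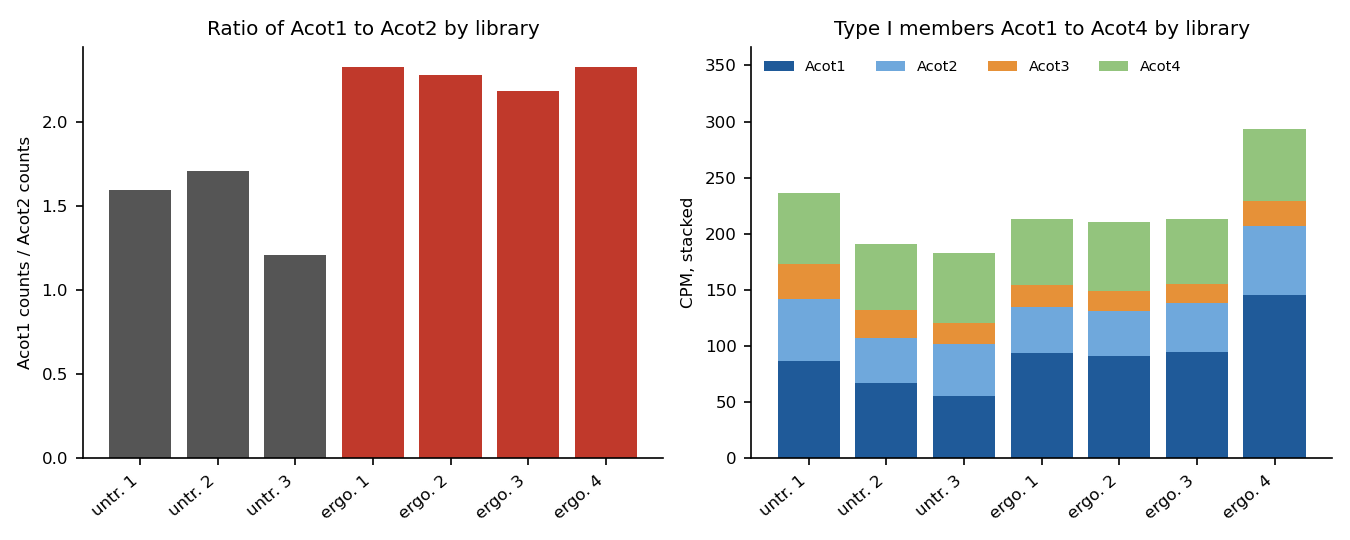
Left, the ratio of Acot1 to Acot2 counts in each library (bars, linear axis from 0). Right, CPM of Acot1 to Acot4 stacked for each library. The ratio ran from 1.21 to 1.71 in untreated and from 2.18 to 2.33 in treated kidneys, and treated library 4 held the highest stack.

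Of the peroxisomal type I genes, Acot3 (ENSMUSG00000021228, chromosome 12, 84052144 to 84060402) stood at 31.7, 25.3 and 18.8 CPM untreated and at 19.8, 17.2, 16.8 and 22.1 CPM treated. Untreated libraries 1 and 2 were the highest, while untreated library 3 lay within the treated range. The log2 fold change was -0.42 ± 0.17 (SE, edgeR adjusted p = 0.214). It passed without untreated library 3 (-0.59, adjusted p = 0.0110) and stood at 0.02 against that library alone. Acot4 (ENSMUSG00000052392, chromosome 12, 84038379 to 84048601), a thioesterase of peroxisomal succinyl-CoA and other dicarboxylyl-CoA esters, had the smallest standard error of the members, at 57.4 to 63.6 CPM over all 7 libraries and a log2 fold change of -0.02 ± 0.06 (adjusted p = 0.90). The antisense gene 4732463B04Rik overlaps both Acot4 and Acot3, and its reads may not be told apart from theirs, since the sources used here do not give the strand setting of the counting.

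The neighbours in the chromosome 12 cluster did not pass either. Acot6, the last thioesterase gene of the cluster, was at 0.23 ± 0.12 (SE, edgeR adjusted p = 0.322), and Acot5 had too few counts to be tested. The flanking genes Numb, Riox1, Dnal1 and Elmsan1 had log2 fold changes between -0.12 and 0.02, with adjusted p-values of 0.280 or more. Summed over Acot1 to Acot4, levels were 236, 191 and 183 CPM untreated and 213, 210.2, 213 and 293 CPM treated, so that the groups overlapped while Acot1 took 30.6% to 36.9% of the sum untreated and 43.5% to 49.5% treated.

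The remaining members did not pass the test and had log2 fold changes between -0.06 and 0.08. Acot13, a small mitochondria-associated thioesterase also called Them2, was at 36.8, 45.0 and 31.6 CPM untreated and at 40.7, 38.1, 40.5 and 40.1 CPM treated. The untreated spread enclosed all treated values, with a log2 fold change of 0.08 ± 0.09 (SE, edgeR adjusted p = 0.716). Acot9, also mitochondrial, ranged over all 7 libraries from 30.2 to 36.3 CPM (-0.06 ± 0.07, adjusted p = 0.745) and shared 15.2% of its 50-base stretches with Acot10, which had at most 2 counts in a library. Acot8, the broad-specificity peroxisomal thioesterase, ranged from 13.6 to 17.1 CPM (0.05 ± 0.10, adjusted p = 0.866), and the cytosolic Acot7, best known from brain, from 10.8 to 12.8 CPM (0.06 ± 0.11, adjusted p = 0.814). On log2(TPM + 1) the signs of Acot7, Acot8 and Acot13 turned negative, where the median of all genes lay at -0.31.

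Per transcript length, 3 members made up most of the family. Mean TPM over the 7 libraries was 89.2 for Acot13, 74.9 for Acot12 and 69.0 for Acot1. These 3 exchanged places between libraries: Acot13 was above Acot12 in 5 of 7 and Acot12 above Acot1 in 3 of 7. Acot12 ranked above Acot1 in the 3 untreated kidneys and below it in the 4 treated ones. Acot4 followed at 30.0 TPM, below Acot1 in every library, and then Acot2, Acot9 and Acot8 between 24.1 and 21.8, an order that changed from library to library. Acot3 had a mean of 12.4 TPM and Acot7 of 9.62, and Acot3 was above Acot7 in 5 of 7 libraries. Acot11 was the lowest in all 7, with a mean of 7.07 TPM, so that 1 of the 2 called genes came from the bottom of the range and the other from near the top.

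Shares of the family were taken for its 2 leading cytosolic genes. Such shares are coupled, since a lower share of 1 gene raises those of the rest. As a share of the summed TPM of all 10 members, Acot12 made up 25.9%, 21.8% and 25.4% in untreated kidneys and 17.6%, 17.6%, 19.1% and 14.0% in treated ones. Acot1 made up 17.2%, 14.5% and 13.1% untreated and 21.0%, 20.9%, 21.0% and 28.1% treated. Neither share overlapped between the groups (exact permutation p = 0.0571 for each, two-sided, the smallest this test can give here). Both genes had already been seen not to overlap in CPM, so these p-values are no separate support. The shares were not among the 7 comparisons adjusted together. The cytosolic sum of Acot1, Acot7 and Acot12 was 179 ± 60.9 TPM (SD, n = 3) untreated and 135 ± 11.0 TPM (SD, n = 4) treated (exact permutation p = 0.286, two-sided). In CPM it was 323 ± 45.8 and 285 ± 19.8 (exact permutation p = 0.229), and on rescaled TPM the order turned, with means of 239 ± 33.0 and 243 ± 31.2 (exact permutation p = 0.80). The sum of all members was 424 ± 122 and 316 ± 19.1 TPM (exact permutation p = 0.286) and 587 ± 54.1 and 533 ± 37.5 CPM (exact permutation p = 0.229), and on TPM rescaled without short non-coding RNA the means were 569 ± 33.1 and 569.5 ± 54.7. The peroxisomal sum was lowest in the treated kidneys, at 51.2 to 57.5 TPM against 58.0 to 94.5 TPM (exact permutation p = 0.0571, 0.200 adjusted over 7 comparisons), but in CPM and on rescaled TPM its groups overlapped (exact permutation p = 0.286 and 0.457). Type II sums in CPM were 413, 372 and 366 untreated and 299, 295, 315 and 294 treated, and did not overlap (exact permutation p = 0.0571, two-sided). In TPM they overlapped, at 195 to 336 untreated and 177 to 202 treated (exact permutation p = 0.114, 0.267 adjusted over the 7 comparisons). On rescaled TPM they did not overlap, at 366 to 382 untreated and 324 to 344 treated (exact permutation p = 0.0571, two-sided). The mean type II sum was 384 CPM untreated and 300.5 CPM treated, of which Acot12 made up 242 and 167 CPM.

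The genes that deviated most like the called members, after subtraction of group means and over 10857 protein-coding genes, were named by a rule that uses no function. For Acot12 they were Wipf3 (Pearson r = 0.99), Desi1 (0.99), Clec2h (0.98), Hbp1 (0.98) and Ppp1r8 (0.98), and for Acot11 Vcl (0.99), Hdhd3 (0.99), Atp8b2 (0.99), Gpr108 (0.98) and Rtl5 (0.98). An r above 0.9 over the 7 libraries was reached by 90 of the 10857 genes for Acot12 and by 80 for Acot11. How many would reach it by chance over so few libraries was not tested, so the names are a description only. None of the named genes passed the test between the groups (edgeR adjusted p from 0.165 to 0.990). On rescaled TPM Atp8b2 was at -0.38 and Rtl5 at 0.56.

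A list of thioesterases outside the Acot members, which also holds the transacylase gene Mcat, was counted in the same way. Of its 19 genes 15 were tested, 2 fell and 0 rose, with a median log2 fold change of 0.00 (0.0024). Over all genes tested 3.57% fell and 3.58% rose, shares that stand beside the list counts that follow as well. Lypla1, a protein depalmitoylating thioesterase, fell from 472 ± 20.1 to 362 ± 7.44 CPM (SD, n = 3 and 4; -0.38 ± 0.06 (SE), edgeR adjusted p = 0.000405), and Ppt2, a lysosomal thioesterase, fell as well (-0.29 ± 0.06). Both calls held without any single library. Them4 was at -0.13 and Them6 at 0.08, and neither passed.

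Acyl-CoA synthetases, which run the opposite reaction, were called in both directions. Of 21 genes 19 were tested, 3 rose and 4 fell. The synthetases of medium-chain acids Acsm5 (-0.39) and of acetate Acss2 (-0.25) were lower, and the long-chain synthetases Acsl1 (0.36) and Acsl3 (0.45) were higher on the log2 scale, and on log2(TPM + 1), where the median of all genes lay at -0.31, Acsl1 stood at 0.00 (-0.0035). Acsm5 kept its call without any single library. Acsl1 lost it on omission of untreated library 2 or 3 or of treated library 1, with an edgeR adjusted p as high as 0.124. For Acsl3 this held for untreated libraries 2 and 3 and treated libraries 2 and 4 (at most 0.107), and for Acss2 for untreated library 3 and treated libraries 1 and 2 (at most 0.0832). The number of rises became 1 on omission of untreated library 2, untreated library 3 or treated library 2. That of falls became 2 on omission of untreated library 1, and 1 on omission of either of the first 2 treated libraries or of untreated library 3.

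Genes of coenzyme A synthesis and breakdown were called mostly as lower. Of 15 tested, 6 fell and 1 rose, with a median of -0.20. Nudt19, a peroxisomal coenzyme A diphosphatase of kidney, fell from 323 ± 11.3 to 147 ± 13.9 CPM (SD, n = 3 and 4; -1.13 ± 0.07 (SE)). Slc25a42, the mitochondrial coenzyme A carrier, fell too (-0.48 ± 0.07), as did the pantothenate kinase Pank1 (-0.46 ± 0.06), while Ppcs, of the synthesis pathway, rose (0.45 ± 0.09). These 4 calls held without any single library. The falls of the list numbered 3 to 5 when single libraries were left out, and 3 without untreated library 1.

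In the carnitine shuttle, which carries acyl groups into mitochondria, 1 of 11 genes fell and 0 rose. This was Cpt1a (-0.26 ± 0.07, edgeR adjusted p = 0.0366), which kept its call only without untreated library 2, and 2 genes fell without treated library 4. Among PPARA and its targets 4 of 29 tested genes fell and 0 rose, with a median of -0.17. Among them were the receptor gene Ppara (-0.58 ± 0.11), Eci1 (-0.34) and Cpt1a. The 4 became 1 without untreated library 1, 2 without treated library 1 or 2 and 9 without treated library 4, and 1 rose without untreated library 2. Eci1 kept its call without any single library, and Ppara lost it without untreated library 1 (adjusted p = 0.0504). Acot1, Acot2, Acot3 and Acot4, which are often counted with these targets, were at 0.60, -0.01, -0.42 and -0.02 and did not pass.

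For peroxisomal oxidation, where Acot4 and Acot8 belong to the list, 2 of 24 genes rose and 5 fell, with a median of -0.07. Phyh (-0.34) and Amacr (-0.32), of branched-chain fatty acid breakdown, and Acox3 (-0.29) were lower, while Hacl1 (0.39), of the same pathway, was higher, and stood at -0.24 on log2(TPM + 1), where the median of all genes lay at -0.31. Phyh, Amacr and Hacl1 kept their calls without any single library, and Acox3 lost its call without untreated library 1 or 3 (adjusted p = 0.0563 and 0.0506). On omission of untreated library 1 or 3 the falls became 2 and the rises 1. Treated library 2 left 3 falls and 1 rise when omitted, and omission of treated library 1 or 3 left 1 rise.

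Of 13 genes of acetate and acetyl-CoA metabolism, in which Acot12 acts, 1 rose and 3 fell, with a median of -0.12. Pck1, which draws on the carbon of the citric acid cycle, fell from 1889 ± 370.1 to 809 ± 42.9 CPM (SD, n = 3 and 4; -1.22 ± 0.11 (SE)) and did so without any single library. Acss2, which rebuilds acetyl-CoA from the acetate that Acot12 releases, was lower (-0.25) as was Me1 (-0.23), and the citrate carrier Slc25a1 rose (0.22) and stood at -0.13 on log2(TPM + 1), where the median of all genes lay at -0.31. Me1 kept its call only without untreated library 3 and Slc25a1 only without treated library 3. Falls became 1 when treated library 1 or 2 was omitted, and 0 genes rose on omission of either of these or of untreated library 2 or 3.

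Leukocyte markers were measured as another cell type that kidney tissue can hold. Of 9 tested markers 1 fell, Ptprc (-0.53), and 2 fell without treated library 4. Their part in the levels of the Acot members was not tested.

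Across the settings tried, Acot12 stayed below 0 and called, and Acot1 above 0 and not called. Acot11 stayed below 0 with its call lost in several settings, and Acot3 stayed below 0 except against untreated library 3 alone.

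**Figure D4:**
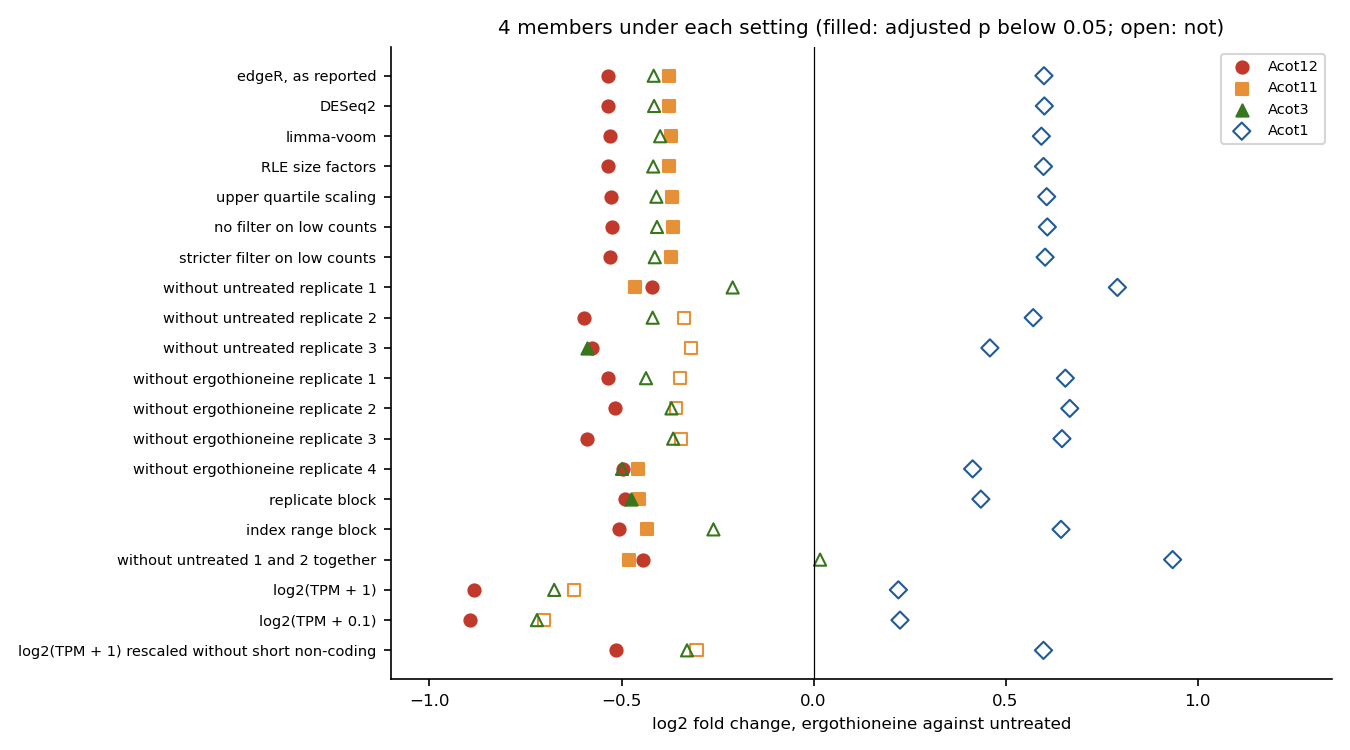
Log2 fold change (x axis) of Acot12, Acot11, Acot3 and Acot1 under each setting (rows), filled where the adjusted p was below 0.05 and open where it was not. The index range block is a term for numbers above 40 in the library names. Acot12 is filled in every row, from -0.90 to -0.42, and Acot1 is open in every row, from 0.22 to 0.93.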

How the data were processed

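Total RNA of frozen kidney was depleted of ribosomal RNA and made into stranded libraries, per the labels' protocols. For 45706 Ensembl genes the deposited values are expected counts (estimated counts, 3.61% of them not whole) and, in a separate table by the authors, TPM. The submitters' processing notes name STAR 2.7.10a, RSEM 1.3.1, Salmon 1.10.1 and DESeq2 among the tools, with no role, and the builds GRCm38 and mm10. Symbols and positions came from GENCODE M21 (GRCm38), which held 45143 of the identifiers. The list symbol Nudt8 matched no gene of the tables, and Pmp34, another name of the listed Slc25a17, was counted once under that symbol. The sources used here give neither the annotation release nor the strand setting.

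Expected counts were rounded and tested with edgeR 4.0.16 (R 4.3.3; filterByExpr, TMM, robust quasi-likelihood F test, Benjamini-Hochberg over 15399 genes, threshold 0.05). Each standard error was taken from the F statistic, as the size of the log2 fold change over the root of F. Alternatives used DESeq2 1.42.0, limma 3.58.1 (voom, and trend on log2(TPM + 1) and log2(TPM + 0.1)), other scalings and filters, TPM rescaled without genes of short non-coding RNA (median transcript length below 400 nt), each library left out, and blocks. The tests were tested on simulated data. Pairs of libraries of a group differed by 7.48 to 25.4 times sampling noise (chi-square per degree of freedom). The 4 best-called members of each list, all 10 members, and for each called member its 5 likest genes (mean log2 CPM 2 or higher) are named; further called markers were named after their values were seen. Some called list genes are not reported here. Members and lists were chosen with earlier results of these data known.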

Additional observations from a re-analysis of the deposited data

Results flagged for a closer look

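Values of the 4 treated libraries were flagged where the extreme library's gap to the next took most of the group's range (Dixon's test at 95%). This was examined for 17 quantities, and chance flags about 1 in 20. All 5 flags fell on treated library 4. Acot1 was at 145 CPM there and at 91.5 to 95.2 CPM in the other treated libraries, Acot2 at 62.2 CPM against 40.1 to 43.6, and Acot11 at 39.1 CPM against 31.2 to 32.3. The sum of Acot1 to Acot4 was 293 CPM against 210.2 to 213, and that of the mitochondrial members 135 CPM against 114 in the rest, both of which contain Acot2. The ratio of Acot1 to Acot2 was not flagged, at 2.33 in that library.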

How the results depend on the processing

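For ergothioneine against untreated, genes called numbered 692 to 1103 without single libraries, 556 without untreated libraries 1 and 2 together (chosen after seeing the data), 536 on log2(TPM + 1), 458 on log2(TPM + 0.1), 266 on rescaled TPM and 1741 at a threshold of 0.1. Higher and lower calls were 552 and 550 by edgeR but 19 and 517 on log2(TPM + 1) and 18 and 440 on log2(TPM + 0.1), where the median gene lay at -0.31 and -0.37. The Acot members called were 1 to 2 without single libraries and 1 on each TPM scale. Acot12 kept its call throughout. Acot11, from -0.46 to -0.32 without single libraries (edgeR adjusted p up to 0.0938), missed the threshold on log2(TPM + 1) at -0.62, on log2(TPM + 0.1) at -0.70 and on rescaled TPM at -0.30. Called list genes were 47, and 31 to 49 without single libraries, 31 without untreated libraries 1 and 2, 22 on log2(TPM + 1), 21 on log2(TPM + 0.1) and 17 on rescaled TPM. The cause of these changes was not tested.

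Signs of uncalled members turned as follows. Acot2 was at 0.00 (0.00049) with no filter, 0.12 without untreated library 1, 0.05, 0.06 and 0.02 without treated libraries 1, 2 and 3, (-0.18 to 0.12 over single omissions), and 0.015 without untreated libraries 1 and 2, where Acot3 was at 0.017 and Acot8 at -0.01 (-0.0081). Acot8 was at 0.00 (-0.0046) without untreated library 2, -0.018 without treated library 4 (-0.018 to 0.096 over single omissions), -0.017 with the replicate block, 0.00 (-0.00067) with a block for numbers above 40 in the library names, which the labels do not call a batch, and -0.039 on rescaled TPM. Acot13 was at -0.036 without untreated library 3 (-0.036 to 0.22 over single omissions). On log2(TPM + 1) and log2(TPM + 0.1), Acot7 was at -0.28 and -0.31, Acot8 at -0.40 and -0.42, Acot13 at -0.30 and -0.30, Acsl1 at -0.0035 and -0.0030, Hacl1 at -0.24 and -0.25, Slc25a1 at -0.13 and -0.13, Gatm at -0.13 and -0.13, and Slc12a1 at -0.034 and -0.034. The summed TPM of all members differed by -108 (-174 to -54.4 without single libraries), and by 0.712 on rescaled TPM.

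Replicate numbers did not pair the mice: correlations of same-numbered deviations were 0.03, -0.07 and 0.00 (0.0027), and no library correlated best with its own number. With the replicate block 809 genes and 3 members were called, Acot3 (adjusted p = 0.0209) beside Acot11 and Acot12. With the block for library-name numbers 921 genes and the same count of 2 members were called.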
